A study of Mus musculus with 22 samples.

Results

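The genes described here drive and police cell division: the cyclins Ccna2, Ccnb1 and Ccnb2, their kinase Cdk1, the Aurora and Polo kinases Aurka, Aurkb and Plk1, and the spindle checkpoint genes Bub1, Bub1b and Mad2l1. They were chosen by name. Of the 10 listed genes, 9 had a probe set annotated to them alone, through 12 probe sets of the 22690 on the array. Ccnb1 is not analysed here. The 9 genes stand among 12393 genes with a probe set of their own and among the 6437 genes bright enough to be tested, and all 9 passed that filter, 3 of them (Aurka, Plk1 and Bub1) with a wild type mean below its level of log2 4. Those 3 and Bub1b, which exceeded that level on 3 of the 4 wild type arrays, passed the filter only with transgenic arrays, so the filter favoured a difference from wild type for these 4, and counts over the 9 genes are given as description.

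The arrays (Affymetrix MOE430A) measured B cell RNA from C57Bl/6 mice at 3 stages of Myc-driven lymphoma. Wild type B cells (4 arrays) and premalignant B cells carrying the Eμ-Myc transgene (5 arrays) were both B220+ and came from littermates aged 4 to 6 weeks. Malignant samples (13 arrays) were lymphomas, each from a different Eμ-Myc mouse. The age of 4 to 6 weeks on their labels was set aside, since the design text gives it for the wild type and premalignant mice. The transgene places Myc under the immunoglobulin heavy chain enhancer, so that it is active in the B lineage. Cells were taken with beads against B220 or IgM from either bone marrow or spleen, and the labels do not say which bead or tissue served for which array. Wild type and premalignant arrays are labelled biological replicates without a statement that each was a separate mouse, so their p-values measure the spread between these samples. The number of arrays limits the precision. Values are deposited GCRMA intensities, used as log2.

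In dividing cells, cyclin A and then cyclin B bind Cdk1 and switch it on, which drives the cell into mitosis. Aurora A and Plk1 mature the centrosomes and build the spindle, and Aurora B corrects faulty attachments of chromosomes to it. Bub1, BubR1 (the product of Bub1b) and Mad2 (the product of Mad2l1) hold the anaphase promoting complex in check until every chromosome is attached, and that complex then destroys securin and the B cyclins. Transcripts of most of these genes are low in resting cells and peak late in the cell cycle.

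Much of this timing is known to run through a promoter element called the cell cycle genes homology region, with the letters TTTGAA (or TTCGAA in a variant form), bound by the MuvB complex, and through CCAAT boxes bound by NF-Y. Promoter windows of 300 bases, from 250 before to 50 after the gene start, were taken from RefSeq (GRCm38.p6) for 8 of the 10 genes. Those of Ccnb2, Plk1, Bub1b and Mad2l1 are shown because these genes span the range of changes seen between stages. They are written 5′ to 3′ along the gene, with the matches to these 3 motifs in capitals, a CCAAT box on the other strand reading ATTGG.
Ccnb2 (chr9:70421505-70421804, minus strand): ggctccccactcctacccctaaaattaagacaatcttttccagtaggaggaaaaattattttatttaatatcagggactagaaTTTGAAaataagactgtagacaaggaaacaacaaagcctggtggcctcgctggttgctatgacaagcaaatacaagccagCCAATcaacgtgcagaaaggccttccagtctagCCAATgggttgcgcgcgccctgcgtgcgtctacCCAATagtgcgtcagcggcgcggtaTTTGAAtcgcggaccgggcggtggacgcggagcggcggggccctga
Plk1 (chr7:122159185-122159484, plus strand): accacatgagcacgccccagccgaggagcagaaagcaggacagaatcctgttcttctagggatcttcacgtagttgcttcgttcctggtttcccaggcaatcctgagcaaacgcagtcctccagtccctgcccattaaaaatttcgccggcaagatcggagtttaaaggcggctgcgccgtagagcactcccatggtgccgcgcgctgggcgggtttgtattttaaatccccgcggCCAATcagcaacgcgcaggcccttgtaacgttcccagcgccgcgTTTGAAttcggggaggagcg
Bub1b (chr2:118597961-118598260, plus strand): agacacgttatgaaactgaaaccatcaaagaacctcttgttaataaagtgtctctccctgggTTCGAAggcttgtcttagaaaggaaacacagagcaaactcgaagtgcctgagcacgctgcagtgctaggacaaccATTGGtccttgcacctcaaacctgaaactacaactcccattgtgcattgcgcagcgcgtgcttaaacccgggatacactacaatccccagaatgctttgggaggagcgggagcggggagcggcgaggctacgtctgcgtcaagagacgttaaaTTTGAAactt
Mad2l1 (chr6:66534971-66535270, plus strand): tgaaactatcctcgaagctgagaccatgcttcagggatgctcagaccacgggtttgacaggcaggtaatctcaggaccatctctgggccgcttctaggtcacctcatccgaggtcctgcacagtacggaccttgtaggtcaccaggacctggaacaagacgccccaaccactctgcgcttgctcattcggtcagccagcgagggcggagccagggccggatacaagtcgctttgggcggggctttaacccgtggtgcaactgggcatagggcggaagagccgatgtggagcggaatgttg

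Both strands were searched, and no matches overlapped. TTTGAA stood in 5 of the 8 windows (Ccnb2, Cdk1, Aurka, Plk1 and Bub1b), each time with a match within 50 bases of the gene start, against 17.9% of all 32851 windows and 4.94% for matches that close to the start. TTCGAA stood in 2 of the 8 (Bub1 and Bub1b), against 1.56% of all windows. A CCAAT box stood in 7 of the 8, against 37.4%, and Ccnb2 and Cdk1 had 3 each. The E-box CACGTG, a known Myc binding sequence, stood in 0 of the 8 windows and in 7.15% of all. The Mad2l1 window held none of the 4. These are letter matches in short windows, and a missing match says only that the letters are not there.

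**Figure D1:**
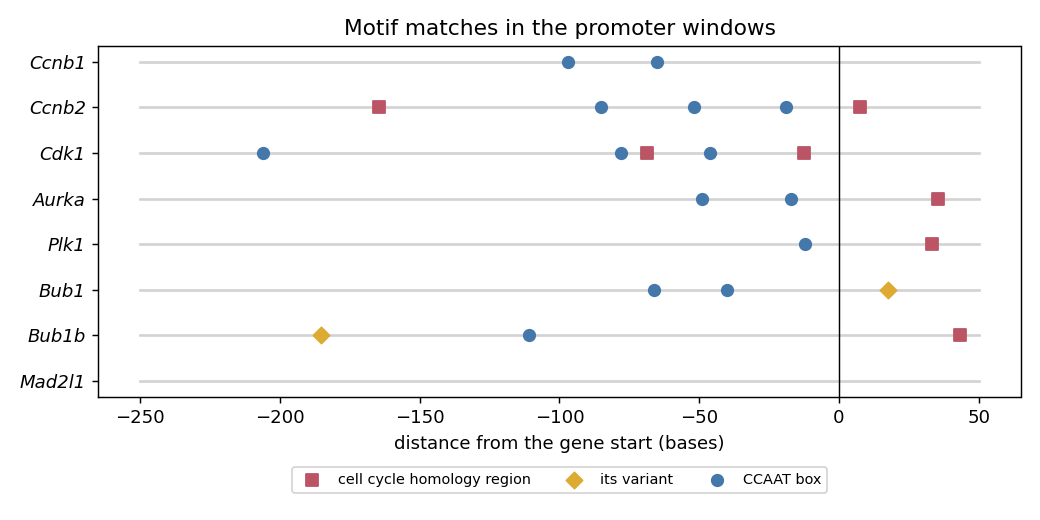
Matches to the cell cycle homology region (TTTGAA), its variant (TTCGAA) and the CCAAT box in 8 promoter windows, placed by distance in bases from the gene start. Ccnb2 and Cdk1 carry 3 CCAAT boxes each, and Mad2l1 carries no match.

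All 9 genes measured were higher in premalignant than in wild type B cells, and in 9 of 9 the lowest premalignant array lay above the highest wild type array. Read through the brightest probe set of each gene, the cyclins, Cdk1, Aurkb and Bub1b rose 6.06-fold to 8.47-fold, while Mad2l1 rose 1.91-fold. Across all genes tested, 12.7% were called higher in this comparison and 14.1% lower (26.8% in either direction), and 11.2% had every premalignant array above every wild type array. The median log2 change was 2.69 over the 9 genes (2.60 when wild type means under log2 4 count as 4) and -0.05 over all genes. Between premalignant cells and lymphomas the changes ranged widely. Bub1b rose a further 2.67-fold and Plk1 2.14-fold, whereas Ccnb2 averaged log2 7.50 in lymphomas and 7.49 in premalignant cells. In whole samples, a larger share of dividing cells and more RNA per dividing cell cannot be told apart.

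**Figure D2:**
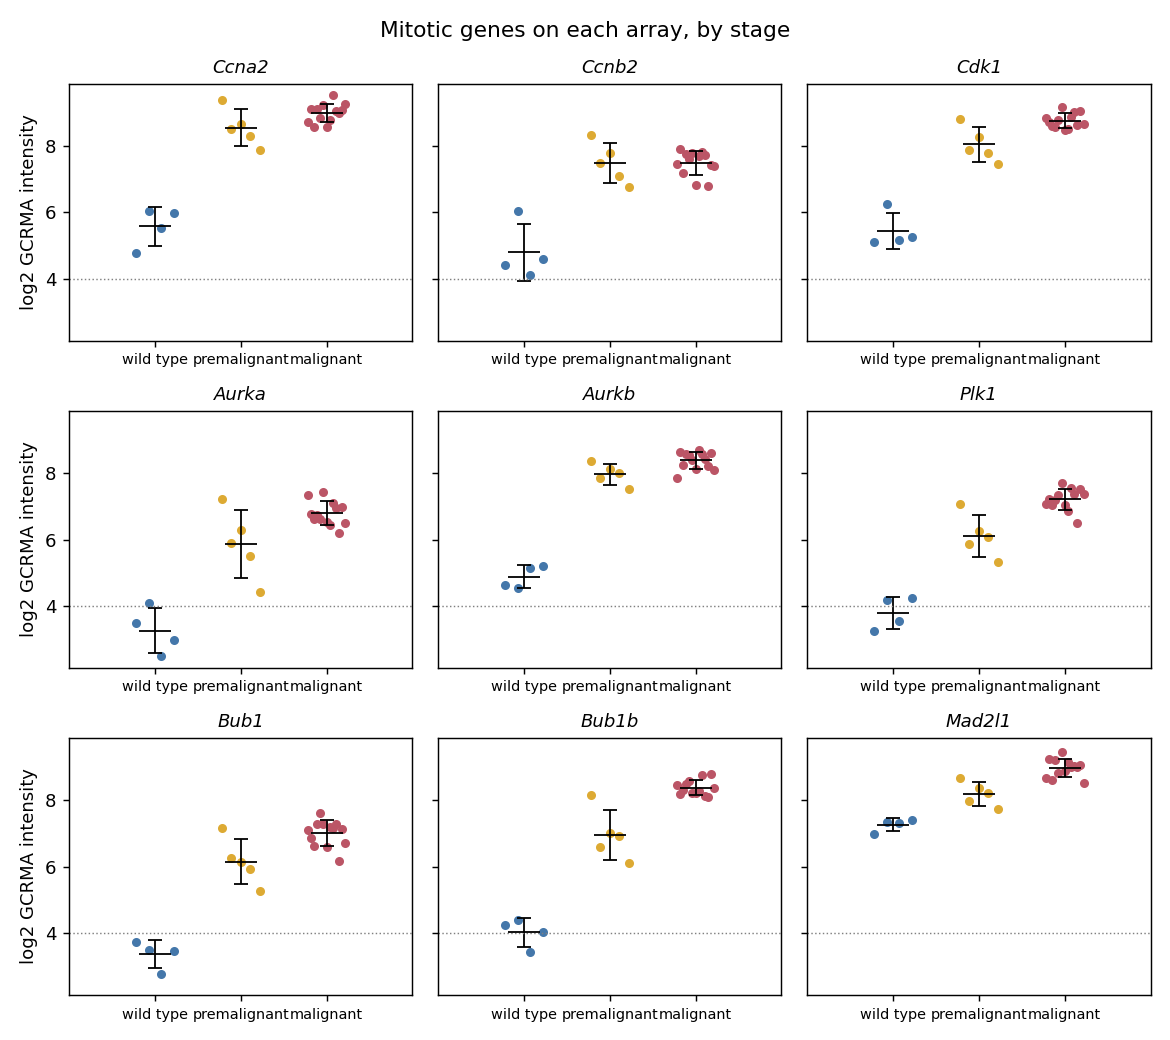
Log2 GCRMA intensity of 9 mitotic genes on each array, in wild type (4 arrays), premalignant (5) and malignant (13) samples, with 1 point per array and the group mean ± SD in black. The dotted line is the filter level of log2 4. In each panel all premalignant and malignant points lie above all wild type points.

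Cyclin A2 (Ccna2), which partners Cdk2 in S phase and Cdk1 at entry into mitosis, is read by a pair of probe sets. The brighter, 1417911_at, gave log2 4.78, 6.05, 5.53 and 5.98 on the wild type arrays, then 9.38, 8.51, 8.66, 8.31 and 7.87 on the premalignant arrays. In the lymphomas it ran from 8.58 through a median of 9.06 to 9.53. Premalignant and lymphoma values overlapped, and both groups lay far above wild type. The change was 2.96 ± 0.33 (SE) on the log2 scale in premalignant over wild type cells, or 7.79-fold, with a limma adjusted p of 0.0002. The other probe set, 1417910_at, rose by 2.44, or 5.42-fold (limma adjusted p = 0.00287 in a fit of all 10789 probe sets).

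The step from premalignant cells to lymphomas was less clear for Ccna2. The brighter probe set averaged 8.99 ± 0.28 in lymphomas (SD, n = 13) and 8.55 ± 0.55 in premalignant cells (SD, n = 5), a log2 change of 0.44 that did not pass (limma adjusted p = 0.0663). Without premalignant array 1 the change was 0.65 and passed (limma adjusted p = 0.00452), and without lymphoma 7 it was 0.47 and just passed (limma adjusted p = 0.0499). The other probe set, 1417910_at, averaged 9.12 ± 0.46 in lymphomas and 7.83 ± 0.67 in premalignant cells, a log2 change of 1.28 that passed in a fit of all 10789 probe sets (limma adjusted p = 0.000589). In that fit 24.4% of probe sets were called in premalignant against wild type cells, 43.2% in malignant against premalignant and 60.8% in malignant against wild type cells. The probe sets of Ccna2 therefore differ in whether this step is called.

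Cyclin B2 (Ccnb2) activates Cdk1 in mitosis and is destroyed at its end. Its wild type arrays read log2 4.43, 6.04, 4.12 and 4.61, and its premalignant arrays 8.33, 7.47, 7.80, 7.11 and 6.77. The lymphomas spanned 6.80 to 7.92 with a median of 7.62, inside the premalignant range. It rose by 2.69 ± 0.41 (SE, log2) in premalignant over wild type cells, or 6.47-fold (limma adjusted p = 0.00101). Lymphomas averaged 7.50 ± 0.37 and premalignant cells 7.49 ± 0.61, a log2 difference of 0.00094 with a 95% interval of -0.46 to 0.46 (limma adjusted p = 0.998). The arrays do not show that the levels are equal, only that a difference lies within that interval.

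Cdk1, the kinase these cyclins activate, read log2 5.12, 6.24, 5.17 and 5.26 in wild type cells, and 8.82, 7.88, 8.28, 7.79 and 7.47 in premalignant cells. Lymphomas ran from 8.49 to 9.18 around a median of 8.72. Only premalignant array 1 reached into the lymphoma range. The premalignant rise over wild type was 2.60 ± 0.30 (SE, log2), or 6.06-fold (limma adjusted p = 0.000261). Lymphomas rose by a further 0.72 ± 0.17 over premalignant cells, or 1.65-fold (limma adjusted p = 0.00212).

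Aurora A (Aurka), which acts at centrosomes and spindle poles, was dim in wild type cells at log2 3.49, 4.10, 2.50 and 2.97. Premalignant arrays read 7.23, 5.90, 6.29, 5.52 and 4.43, the widest range of the 9 genes, and lymphomas ran from 6.21 through 6.74 to 7.42. Premalignant array 5 lay close to wild type array 2, and premalignant array 1 lay among the highest lymphomas. Aurka rose at least 3.67-fold in premalignant over wild type cells, with a fitted log2 change of 2.61 ± 0.50 (limma adjusted p = 0.00378). The rise in lymphomas over premalignant cells was 0.92 ± 0.29, or 1.89-fold (limma adjusted p = 0.0174), and it did not pass without premalignant array 4 (log2 0.83, limma adjusted p = 0.0547) or array 5 (log2 0.56, limma adjusted p = 0.0907).

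Aurora B (Aurkb), the kinase of the chromosomal passenger complex, is read by probe sets of types that may also bind related transcripts. The brighter gave log2 4.63, 4.55, 5.15 and 5.22 in wild type cells and 8.35, 7.84, 8.12, 8.02 and 7.51 in premalignant cells, and 7.85 to 8.69 in lymphomas with a median of 8.41. It rose 8.47-fold in premalignant over wild type cells (log2 3.08 ± 0.21, limma adjusted p = 1.49e-05), while the dimmer probe set rose 2.68-fold. In lymphomas over premalignant cells the brighter rose 1.33-fold (log2 0.41 ± 0.15, limma adjusted p = 0.0298), and the dimmer changed by 0.31 and did not pass (limma adjusted p = 0.278). The small second rise was lost without premalignant array 2 (log2 0.38, limma adjusted p = 0.0727), array 4 (0.43, p = 0.0512) or array 5 (0.30, p = 0.126).

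Plk1, the Polo kinase that promotes entry into mitosis and spindle assembly, read log2 3.24, 4.17, 3.54 and 4.23 in wild type cells and 7.07, 5.86, 6.26, 6.07 and 5.33 in premalignant cells. Lymphomas ran from 6.49 through 7.22 to 7.72, and of the premalignant arrays only array 1 lay within that range. Plk1 rose at least 4.34-fold in premalignant over wild type cells (fitted log2 change 2.32 ± 0.33, limma adjusted p = 0.000761). It rose 2.14-fold in lymphomas over premalignant cells (log2 1.10 ± 0.21, limma adjusted p = 0.000459).

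Bub1, a checkpoint kinase at the kinetochore, read log2 3.72, 3.51, 2.76 and 3.48 in wild type cells, below the filter level on every array. Premalignant arrays read 7.15, 6.26, 6.14, 5.93 and 5.27, and lymphomas ran from 6.16 through 7.14 to 7.62. The rise was at least 4.44-fold in premalignant over wild type cells (fitted log2 change 2.78 ± 0.33, limma adjusted p = 0.000294) and 1.81-fold in lymphomas over premalignant cells (log2 0.85 ± 0.24, limma adjusted p = 0.00771). A further Bub1 probe set, 1438571_at, was dim at all stages, with means of 3.51, 3.43 and 3.44 in wild type, premalignant and malignant samples, and was not tested.

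Bub1b encodes BubR1, part of the mitotic checkpoint complex that inhibits Cdc20. Its wild type arrays read log2 4.26, 4.39, 3.43 and 4.03, its premalignant arrays 8.17, 6.59, 7.01, 6.91 and 6.10, and its lymphomas 8.11 to 8.78 with a median of 8.30. All lymphomas lay above 4 of the 5 premalignant arrays, and premalignant array 1 reached the low end of their range. Bub1b rose 7.62-fold in premalignant over wild type cells (log2 2.93 ± 0.37, limma adjusted p = 0.000375). In lymphomas over premalignant cells it rose by 1.42 ± 0.22 (limma adjusted p = 4.47e-05), the largest second rise among the 9 genes.

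Mad2l1 encodes Mad2, which binds Cdc20 directly. It was already well above the filter level in wild type cells, at log2 6.97, 7.36, 7.32 and 7.41, and read 8.68, 7.98, 8.38, 8.22 and 7.74 in premalignant cells. Lymphomas ran from 8.51 through 9.01 to 9.46. Its rise of 0.93 ± 0.20 in premalignant over wild type cells (limma adjusted p = 0.00586) was the smallest of the 9. The rise of 0.78 ± 0.16 in lymphomas over premalignant cells (1.72-fold, limma adjusted p = 0.000644) was of similar size.

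**Figure D3:**
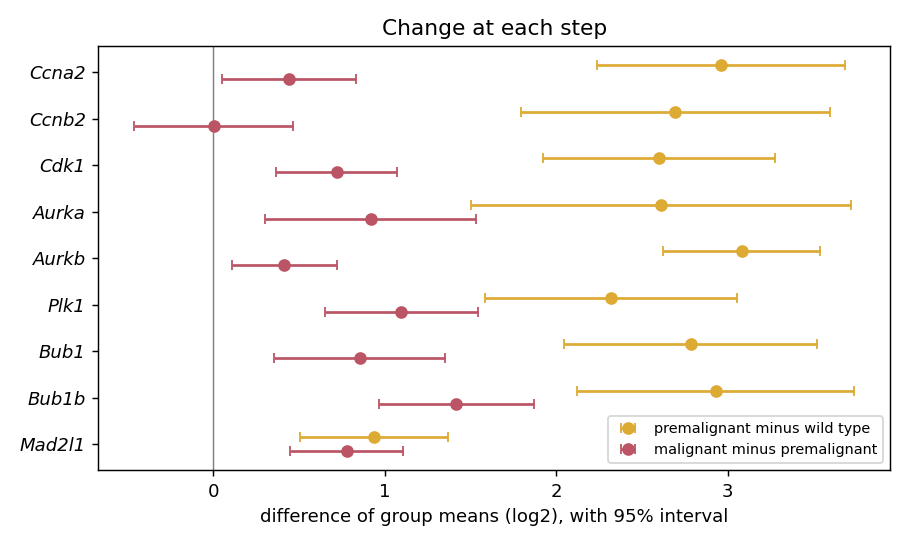
Difference of group means (log2) with its 95% interval for 9 mitotic genes, premalignant minus wild type (yellow) and malignant minus premalignant (red). The second step spans 0.00094 (Ccnb2) to 1.42 (Bub1b), and both steps use the same premalignant arrays.

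Between lymphomas and premalignant cells 7 of the 9 genes rose, beside 24.8% of all genes called higher and 17.3% called lower (42.1% in either direction). The median change was 0.78 over the 9 genes and 0.09 over all genes. None of the 9 had all lymphomas above all premalignant arrays, as 6.28% of all genes did, since premalignant array 1 reached the lymphoma range for each of them. Without premalignant array 1 and wild type array 2, the arrays least like the rest of their groups, 8 of 9 passed. That alternative was chosen after seeing the data. RNA quality moved with this comparison: the 3′ minus 5′ difference of beta-actin was 1.93 ± 0.37 (log2) in lymphomas and 0.70 ± 0.09 in premalignant cells, and its part in the result was not tested.

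Between lymphomas and wild type cells 9 of 9 genes rose without overlap, beside 31.8% of all genes called higher, 29.7% called lower (61.5% in either direction) and 18.3% with all lymphomas above all wild type arrays. The 3′ minus 5′ difference of beta-actin was 1.93 ± 0.37 in lymphomas and 0.77 ± 0.10 in wild type cells, and its part here was not tested either. Bub1b rose 20.3-fold (log2 4.35 ± 0.16, limma adjusted p = 2.48e-13), Aurkb 11.3-fold and Ccna2 10.6-fold. The dimmer Aurkb probe set rose 3.32-fold, and the other Ccna2 probe set 13.2-fold. Ccnb2 rose 6.48-fold and Mad2l1 3.28-fold. The 3 comparisons share arrays, so they are not independent of each other. Centring the arrays on their hybridisation spikes moved the median of all genes to 0.20, 0.22 and 0.43 for premalignant over wild type, malignant over premalignant and malignant over wild type. The medians of the 9 genes were then 2.95, 0.91 and 3.81.

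The balance among the genes within an array was compared as well. The difference between genes has no meaning as a level, because probe sets differ in brightness, but it can be compared between arrays. Bub1b minus Ccnb2 spanned -1.64 to -0.16 (log2) in wild type cells, -0.89 to -0.16 in premalignant cells and 0.26 to 1.40 in lymphomas, with a lymphoma median of 0.96. Every lymphoma thus lay above every premalignant and wild type array. Plk1 minus Ccnb2 spanned -1.86 to -0.38 in wild type cells, -1.62 to -1.04 in premalignant cells and -0.84 to 0.21 in lymphomas, so that lymphomas lay above premalignant arrays but overlapped wild type arrays. Aurka minus Aurkb overlapped between them. These pairs were picked after their values were seen, and no test is given.

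Within the premalignant group, the genes shared their extreme arrays. Array 1 was the highest of the 5 in 9 of 9 genes, on average 0.87 (log2) above the group mean, and array 5 was the lowest in 9 of 9, on average 0.76 below it (-0.76). The SD of the 9-gene mean was 0.59, nearly as large as the median SD of the single genes, 0.61. Myc did not follow this order, at 10.01 on array 1 and 10.04 on array 5. Premalignant array 1 had the highest sum of early B cell markers in its group (log2 9.60, against 8.47 to 9.33 on the other 4). Its sums of monocyte and macrophage markers (8.14, against 9.55 to 9.79) and of plasma cell markers (10.27, against 10.79 to 11.64) were the lowest. So was its mean correlation with its group over all genes tested (0.938). The part of these in the ordering was not tested.

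The 9-gene means of the lymphomas ran from 7.62 to 8.30, with an SD of 0.21 against a median single-gene SD of 0.28. Lymphoma 9 lay above the group mean in 9 of 9 genes, and lymphomas 3 and 7 lay below it in 9 of 9. Over all genes tested, lymphomas 3 and 7 were each nearest to the other, at a correlation of 0.984. Their mean correlations with the group were 0.938 and 0.930. Lymphoma 11 was the lowest in 5 of 9 and had the highest Myc of the lymphomas, 10.76, while lymphoma 6 was the highest in 4 of 9 with a Myc value of 8.85. These 2 and the next 2 were picked after their values were seen. Lymphoma 13 had the lowest Myc, 8.67, with a mean deviation of -0.12 over the 9 genes, and lymphoma 4 had a Myc value of 10.40 with a mean deviation of 0.11. As a group, Myc averaged 9.59 ± 0.59 in lymphomas and 9.97 ± 0.26 in premalignant cells, a change of -0.38 that did not pass (limma adjusted p = 0.255). It rose 7.59-fold in premalignant over wild type cells (limma adjusted p = 1.45e-05).

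**Figure D4:**
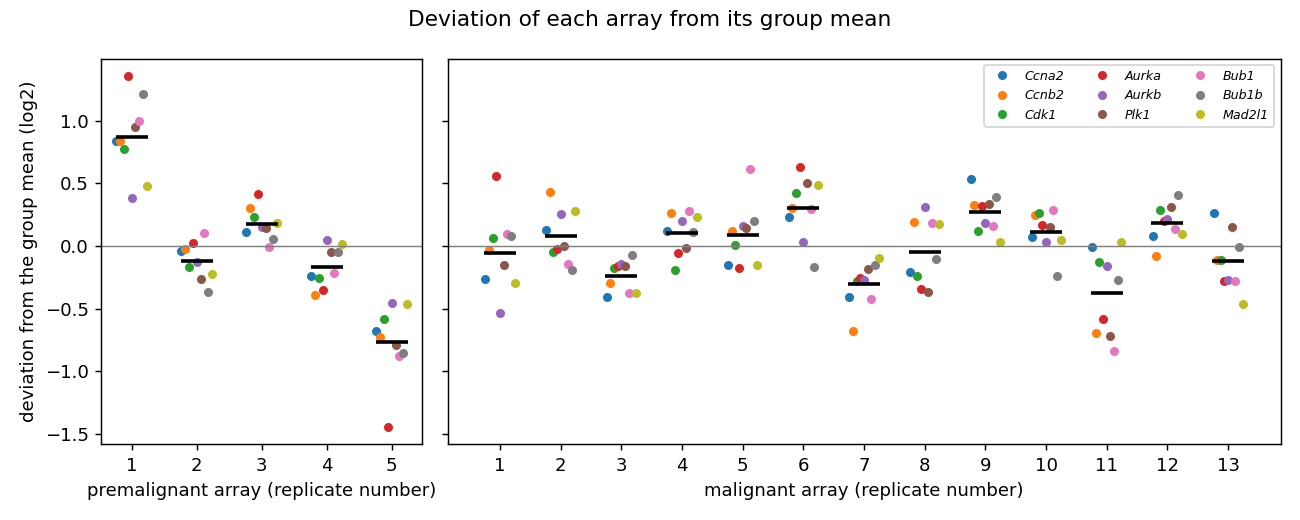
Deviation of each of 9 mitotic genes from its group mean (log2, vertical axis) on the 5 premalignant and 13 malignant arrays, with 1 coloured point per gene and a black bar for their mean. All 9 points lie above 0 on premalignant array 1 and below 0 on premalignant array 5.

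The SD among lymphomas was below the SD among premalignant arrays in 9 of 9 genes, as it was in 39.2% of all genes. The median SD of the 9 was 0.28 in lymphomas and 0.61 in premalignant cells, while the median over all genes was 0.33 in lymphomas and 0.28 in premalignant cells. Bub1b had an SD of 0.23 in lymphomas and 0.76 in premalignant cells, and Aurka 0.36 in lymphomas and 1.03 in premalignant cells. The premalignant SDs rest in part on array 1: without it their median was 0.40, with 0.41 for Bub1b, 0.40 for Plk1 and 0.80 for Aurka, and the lymphoma SD was still the smaller in 9 of 9 genes, as in 23.7% of all genes. Without premalignant array 5 it was the smaller in 8 of 9 (36.0% of all genes). These differences did not pass the limma test on absolute deviations: 0 of 9 were called. Of the 9, 3 (Cdk1, Aurka and Bub1b) had an unadjusted p under 0.05, as had 1067 of all 6437 genes. That test called 1.03% of all genes narrower and 1.24% wider in lymphomas.

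Against wild type cells, the lymphoma SD was smaller in 8 of 9 genes (34.5% of all genes), with Mad2l1 the exception at 0.27 in lymphomas and 0.20 in wild type cells. Again 0 of 9 passed, beside 2.02% of all genes called narrower and 0.823% wider. An unadjusted p under 0.05 was reached by 4 (Ccna2, Ccnb2, Cdk1 and Aurka), and by 1119 of all 6437 genes. The smaller Cdk1 spread did pass without wild type array 1, 3 or 4 (limma adjusted p = 0.0453, 0.0407 and 0.0312), and that of Ccnb2 without array 4 (0.0334), which made 1, 1 and 2 genes called. The wild type SDs of Cdk1 and Ccnb2, 0.53 and 0.85, rested largely on array 2. Without it they were 0.07 and 0.25, below the lymphoma SDs of 0.22 and 0.37. The lymphoma SD was then the smaller in 6 of 9 genes (25.7% of all genes). Premalignant SDs were smaller than wild type SDs in 4 of 9 (43.7% of all genes), and 0 of 9 differences passed. An unadjusted p under 0.05 was reached by 0 of 9 and by 556 of all 6437 genes. The test called 0.0466% of all genes narrower.

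**Figure D5:**
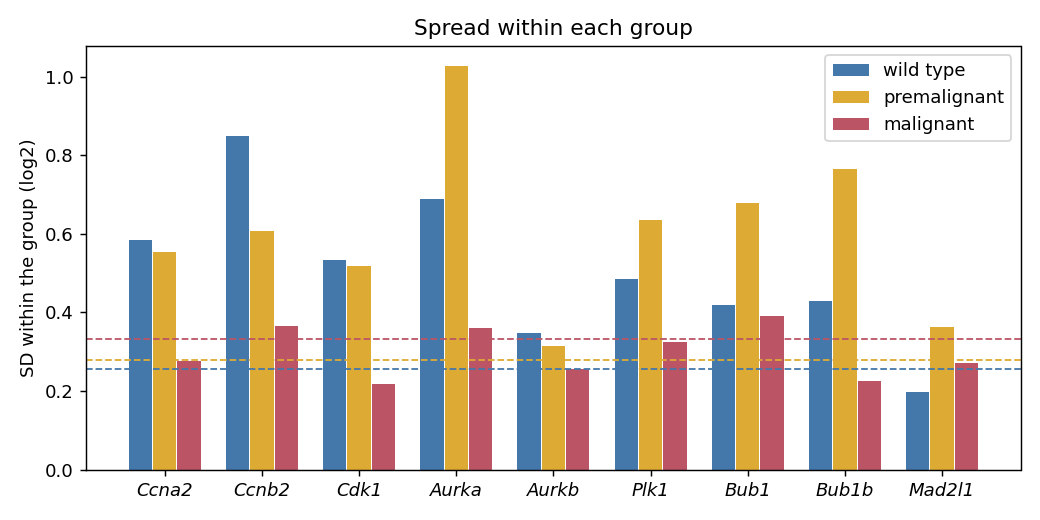
SD of log2 intensity within the wild type, premalignant and malignant groups for 9 mitotic genes, as bars from 0. Dashed lines in the same colours are the median SD over all 6437 genes, 0.26, 0.28 and 0.33. The premalignant bar of Aurka reaches 1.03.

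In wild type cells, array 2 was the highest in 5 of 9 genes, among them Ccnb2 and Cdk1. The same array had red cell transcripts: Alas2, a haem synthesis enzyme, read log2 8.39 and Slc4a1, a red cell membrane protein, 8.07, against 2.09 to 6.12 and 3.79 to 5.82 on the other wild type arrays. Premalignant array 2 had more of both, at 9.20 and 10.41, and lay near its group mean in these mitotic genes (-0.12). In lymphomas Alas2 stayed between 2.02 and 2.09. Klf1, another red cell marker, followed Alas2, at 5.06 on wild type array 2 and 6.49 on premalignant array 2. The other arrays read 2.11 to 2.84 in wild type and 2.11 to 2.16 in premalignant cells, and lymphomas averaged 2.06. Tfrc was also highest on array 2 within the wild type and premalignant groups (8.31 and 9.11). The group means of Tfrc and Hba-a1 did not follow those of Alas2. Tfrc averaged 7.56, 8.68 and 10.24 in wild type, premalignant and malignant samples, and Hba-a1 was dim at 2.59, 2.60 and 2.54. Summed over the 6 red cell markers on the array, medians were 8.04, 8.69 and 10.28. Of these 6, only Tfrc had a lymphoma mean above the filter level. The part of red cell precursors in the wild type values was not tested. The B lineage markers Cd79a and Cd79b, which encode the signalling chains of the B cell receptor, were bright in all groups, at means of 13.02 and 12.76 in wild type, 12.53 and 12.22 in premalignant and 11.50 and 10.68 in malignant samples. The probe set of Pax5, a B lineage transcription factor, was dim throughout, with means of 3.33, 2.79 and 2.57 in the same order. Of the 7 T cell markers, 0 had a group mean above the filter level. Summed stromal and endothelial markers had medians of log2 8.06, 7.47 and 9.57 in wild type, premalignant and malignant samples. Among the 5 of them tested, 3 rose and 1 fell in lymphomas over premalignant cells (24.8% and 17.3% of all genes). Summed plasma cell markers had medians of 11.71, 11.02 and 8.68 in wild type, premalignant and malignant samples. In the same order, means were 11.07, 10.07 and 3.30 for Jchain, the joining chain of secreted antibodies, 12.03, 11.82 and 8.04 for Ms4a1, the mature B cell antigen CD20, and 6.92, 7.00 and 9.78 for Lyz2, the lysozyme of myeloid cells. Summed monocyte and macrophage markers, Lyz2 among them, had medians of 9.85, 9.66 and 9.83 in wild type, premalignant and malignant samples. Of the 4 tested, 2 rose and 2 fell in lymphomas over premalignant cells (24.8% and 17.3% of all genes). Csf1r, another of them, averaged 9.10, 8.57 and 7.04 in the order of the sums. Summed neutrophil markers had medians of 7.38, 9.51 and 8.23 in wild type, premalignant and malignant samples. Wild type array 2 had the highest such sum in its group (9.31, against 6.16 to 8.38). Of the 5 tested, 0 were called in premalignant over wild type cells (26.8% of all genes) and 0 in lymphomas over premalignant cells (42.1%). The part of all these markers in the differences between stages was not tested.

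Partners of these genes were taken from 9 lists holding 125 genes, of which 97 were tested. In premalignant over wild type cells 47 rose and 4 fell, in lymphomas over premalignant cells 50 rose and 4 fell, and in lymphomas over wild type cells 70 rose and 7 fell. The shares of all genes called higher and lower were 12.7% and 14.1% in the first comparison, 24.8% and 17.3% in the second and 31.8% and 29.7% in the third. The medians over the 97 were 0.54, 0.49 and 1.08 on the log2 scale. Some of the 97, such as Cenpf, Ttk and Aspm, had wild type means below the filter level (log2 2.73, 3.05 and 2.70). They passed the filter only with transgenic arrays, so it favoured a difference from wild type for them. Counts over the lists are therefore given as description.

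Of 10 cyclin-dependent kinase partners, 8 rose in premalignant over wild type cells, including Cks1b (4.95-fold), a small subunit that binds the kinase, and 5 rose in lymphomas over premalignant cells, among them Cks1b (2.01-fold). Of 9 partners of the Aurora and Polo kinases, 8 and then 7 rose. Birc5 (survivin), a subunit of the Aurora B complex, rose 6.55-fold in premalignant over wild type cells, and Incenp, its scaffold, rose 2.34-fold in lymphomas over premalignant cells. Tpx2, which activates Aurora A, rose at least 4.29-fold at the first step.

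Other spindle checkpoint genes rose in 5 of 8 cases at the first step and 7 of 8 at the second. Trip13, an ATPase that remodels Mad2, rose 3.77-fold in premalignant over wild type cells and 2.24-fold in lymphomas over premalignant cells. Ttk, the kinase that starts checkpoint signalling, rose at least 2.16-fold at the first step, and Mad1l1, which recruits Mad2 to kinetochores, at least 1.38-fold at the second. Mad2l1bp, whose product p31comet helps silence the checkpoint, fell by 0.65 (log2) in premalignant over wild type cells (limma adjusted p = 0.037). Among 12 kinetochore and centromere genes 7 and then 6 rose. Cenpf, a large kinetochore protein of dividing cells, rose at least 2.99-fold and then 3.03-fold.

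Of 14 genes of the anaphase promoting complex and its regulators, 3 rose in premalignant over wild type cells, and those were the E2 enzymes Ube2c (6.15-fold) and Ube2s (2.64-fold) and the activator Cdc20 (4.02-fold). The subunit Anapc4 fell by 0.51. These counts stand beside 12.7% of all genes called higher and 14.1% lower. At the second step 6 rose and 1 fell, beside 24.8% and 17.3% of all genes, with Cdc20 at 2.04-fold, Anapc7 at 1.75-fold and Anapc5 at 1.71-fold. Fzr1, which encodes the activator Cdh1 used at mitotic exit and in G1, fell by 0.57 (limma adjusted p = 0.0189).

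Among 14 genes of cohesin, securin and condensin, 5 rose and 1 fell at the first step. The condensin genes Ncaph (4.30-fold) and Ncapd2 (3.56-fold) and the shared subunit gene Smc2 (3.77-fold) rose. Pttg1, which encodes securin, the inhibitor of separase, fell by 0.78 in premalignant over wild type cells (limma adjusted p = 0.0208), with no overlap. It averaged 7.80 in premalignant and 8.58 in wild type cells. At the second step 7 rose and 1 fell, with Ncapg at 2.31-fold and the cohesin gene Stag2 down by 0.50 (-0.50).

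Of 9 cytokinesis genes 8 and then 6 rose, among them Racgap1 (5.68-fold at the first step), a regulator of the cleavage furrow, and Anln (3.26-fold at the second), which encodes anillin. The Greatwall and mitotic exit list, largely phosphatase subunits and regulators, had 0 of 8 called at the first step and 2 of 8 at the second, Ppp1cc (1.51-fold) and Arpp19 (1.44-fold), a share near the 24.8% of all genes called higher at that step. Of 13 cell cycle transcription factors 3 rose and 1 fell at the first step (12.7% and 14.1% of all genes), and 4 rose and 2 fell at the second (24.8% and 17.3%). Tfdp1, the partner of E2F factors, rose 4.27-fold and then 2.00-fold. Foxm1 and Mybl2, which activate mitotic genes, rose 2.41-fold and 2.11-fold in lymphomas over premalignant cells. Rbl2, which encodes the p130 pocket protein of the DREAM repressor, fell by 0.78 in premalignant over wild type cells and by 1.02 in lymphomas over premalignant cells (limma adjusted p = 0.0163 and 0.000113).

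The genes whose centred profile over all 22 arrays was nearest to the mean profile of the 9 were Top2a, Birc5, Cdc20, Cdca5 and Cep55. Their root mean square differences from it were 0.23, 0.25, 0.25, 0.25 and 0.27 (log2), against a median of 1.30 over 6428 other genes. The 22 arrays fall into 3 groups, so this likeness includes the differences between stages. Top2a, the topoisomerase of dividing cells, read 6.81 ± 0.69 in wild type cells, 9.34 ± 0.72 in premalignant cells and 10.04 ± 0.31 in lymphomas. It was highest on premalignant array 1 and lowest on premalignant array 5. Top2a was picked for its likeness over these same arrays, so its order is no separate evidence. Mki67, which was not picked in that way, was highest on premalignant array 2 and lowest on premalignant array 5. Among the 9 genes, Cdk1 lay closest to the mean of the others (0.18), and Ccnb2 (0.47), Bub1b (0.55) and Mad2l1 (0.74) lay farthest.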

How the data were processed

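The deposited values are linear intensities that the authors made with GCRMA, per the submitters' processing notes. No source used here gives its version or says that the 22 arrays were summarised in 1 run. log2 of these deposited intensities was taken here. Probe sets were named through the GEO platform annotation and kept when log2 exceeded 4 on at least 4 arrays (10789 of 22690). A gene was tested through its kept probe set with the highest mean, which gave 6437 genes. The 2 groups of a comparison were fitted alone in limma 3.58.1 under R 4.3.3, by lmFit followed by eBayes, with two-sided tests. Calls were made at a threshold of 0.05 on p-values adjusted across the 6437 genes (Benjamini-Hochberg). For folds, means under log2 4 were raised to 4, and the result is written as at least N-fold. Spread was tested in the same way on absolute deviations from the group mean, scaled for group size.

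The fits were tested on simulated data. Alternatives varied the filter, the probe set of a gene, the centring, a floor at the filter level, a joint fit, array weights, a replicate block and the arrays left out. Deviations of same-numbered arrays correlated at -0.06 to 0.21 between premalignant and wild type arrays (3 of 4 over 0.1) and at -0.11 to 0.07 with lymphomas. As not every pair passed 0.1 and no label ties a number to a litter, the numbers were not taken to pair the samples. The genes and lists were chosen with earlier results of these data known. Named genes are the 9 genes analysed, the 5 nearest profiles and Myc. From each list and comparison, up to 3 called genes in the prevailing direction plus 1 opposite were named as well. Cd79a, Cd79b, Alas2, Slc4a1, Klf1, Tfrc, Hba-a1, Pax5, Jchain, Ms4a1, Lyz2 and Csf1r are cell type markers, singled out after their values were seen. Mki67 was also named after its values were seen. Promoter windows came from RefSeq (GRCm38.p6).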

Additional observations from a re-analysis of the deposited data

Results flagged for a closer look

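Dixon's test for 1 stray array was run on 26 groups of 4 or 5 arrays and marked 3, where chance marks about 1 in 20. Cdk1 on wild type array 2 read log2 6.24, and the nearest of the other 3 arrays read 5.26, a gap of 0.876 of the range. The dim Bub1 probe set 1438571_at read 3.81 on premalignant array 1, with the nearest array at 3.39 (0.719 of the range), and 3.80 on wild type array 2, with the nearest at 3.45 (0.853 of the range). Both Bub1 values lie below the filter level of log2 4.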

How the results depend on the processing

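All 9 genes rose in premalignant over wild type and in malignant over wild type cells under every alternative run, including each array left out in turn (9 to 9 genes). In malignant over premalignant cells 5 to 8 passed with 1 array left out, and 2 of 9 (Bub1b and Plk1) passed with the replicate block, where Aurka, Mad2l1, Cdk1, Bub1 and Aurkb had limma adjusted p-values of 0.0506, 0.0555, 0.0586, 0.0686 and 0.251. The replicate block compares only same-numbered arrays, which the labels do not pair. It called 1677 genes in that comparison, against 2711. Over all alternatives of this comparison, 12 single-gene calls were lost, 4 were gained and 0 reversed among 261 values, and Ccnb2, never called, ran from -0.18 to 0.21 with 1 array left out. As the mean of its probe sets Ccna2 passed (0.86, adjusted p = 0.00289) and Aurkb did not (0.36, 0.106). Aurkb also missed under spike centring (0.55, 0.0712).

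Spike centring called 560 genes in premalignant over wild type cells (455 higher and 105 lower, against 818 and 907), 1771 in malignant over premalignant cells (1209 and 562, against 1597 and 1114), and 2349 higher and 788 lower in malignant over wild type cells, against 2045 and 1911. Without a filter 4929 genes (1640 and 3289) and 7921 genes (2124 and 5797) were called in the last 2 comparisons, against 2711 and 3956, among 12393 tested. For the spread of malignant against wild type arrays 0 to 2 of the 9 genes passed with 1 array left out. The number of all genes called for spread ran from 0 to 376 (146 as reported) for malignant against premalignant, 54 to 454 (183) for malignant against wild type and 0 to 53 (3) for premalignant against wild type arrays. The causes were not tested. Probe sets near the filter level limit the wild type values of Aurka, Plk1, Bub1 and Bub1b.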
